A study of Mus musculus with 4 samples.

Results

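The accessible regions described here lie in and around 10 genes of the YAP, TEAD and Hippo pathway: Yap1, Wwtr1, Tead1, Tead2, Tead3, Tead4, Amotl1, Amotl2, Lats2 and Ptpn14. For each gene, the window was its body in the mouse build GRCm38 (mm10) extended by 20 kb on each side. The windows held 151 of the 103629 accessible regions of the series, around 10 of 21887 protein-coding genes. B16F10 mouse melanoma cells in culture were profiled by Omni-ATAC, a form of ATAC-seq, where a transposase (Tn5) inserts sequencing adapters into open chromatin. The tested cells carried a guide RNA against Arid1a (sgArid1a, 2 libraries) and the control cells a scrambled guide (sgScramble, 2 libraries), with no other treatment named in the labels. ARID1A is a subunit of BAF (SWI/SNF), an ATP-dependent complex that moves nucleosomes. The labels do not say whether the guided cells were a clone or a pool, or whether replicates were separate cultures, so the spread between replicates may be technical.

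The Hippo pathway is a kinase cascade that restrains growth. At its end the LATS kinases phosphorylate the coactivators YAP1 and TAZ (the product of Wwtr1), which keeps them out of the nucleus. YAP1 and TAZ do not bind DNA themselves and reach their target genes through the TEAD transcription factors. Angiomotin family proteins and the phosphatase PTPN14 bind YAP1 and hold it in the cytoplasm or at junctions, and several of these regulators are themselves YAP and TEAD target genes. In melanoma, YAP and TEAD activity is known from undifferentiated and invasive cell states, and ARID1A-containing BAF complexes have been described as partners that hold YAP1 and TAZ in check.

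The authors had called broad peaks in each library separately. There were 65353 and 71255 peaks in sgArid1a replicates 1 and 2, against 82319 and 85613 in sgScramble replicates 1 and 2. They covered 53.7 and 62.6 Mb in the sgArid1a lists and 73.9 and 75.8 Mb in the sgScramble lists, a difference of -22.3% in the group means. The lists hold no read counts, so depth is unknown. The targeted gene cannot be checked from peaks: a peak lay at an annotated start of Arid1a in 4 of 4 lists, and an edit by a guide need not remove one. Of 9 melanocyte marker genes, 9 had a peak within 1 kb of a start in every list. None of the 4 epithelial or 3 endothelial markers did so in any list, while 1 of 5 leukocyte markers (Lyz2) and 1 of 3 fibroblast markers (Col1a1) did in every list. The fibroblast marker Pdgfra had such a peak in the 2 sgScramble lists and in no sgArid1a list, and its part in the results was not tested.

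Most accessible regions of the pathway genes were found in every library, and those lost from both sgArid1a lists lay inside or beside the genes and not over their starts. Lost regions were rare over annotated starts in general (1.48%). Of the 151 regions, 85 (56.3%) had a peak in all 4 lists. A further 18, at 7 of the 10 genes, were present in the 2 sgScramble lists and absent from the 2 sgArid1a lists, and are called lost. That was 15.7% of the 115 regions shared by the sgScramble lists (95% Clopper-Pearson interval 9.55% to 23.6%, which covers counting error over regions only). The same share was 11.8% over all regions within 20 kb of a protein-coding gene and 12.9% over the whole genome, so the interval of the pathway genes holds both. At least 1 lost region was found in 37.2% of all gene windows with a region shared by the sgScramble lists. Windows differ in size, and one with more shared regions has more that can be lost. The windows of the 10 genes held between 5 and 21 shared regions, whereas the median gene window with a peak held 6 regions of any pattern. Gained regions, the reverse case, numbered 0 of the 91 shared by the sgArid1a lists. With 3 counts as the limit for a count of 0, the share could be up to 3.3%. It was 1.35% around all protein-coding genes and 1.39% genome-wide.

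The remaining 48 regions followed other patterns. Of these, 12 were in both sgScramble lists and 1 sgArid1a list, and 6 were in both sgArid1a lists and 1 sgScramble list. A single sgArid1a list held 8 of them, a single sgScramble list 15, and 1 list of each group 7. The lost and gained counts differed with the length of the lists. With all lists cut to the length of the shortest by the authors' fold, 5 of 82 regions were lost (6.1%) and 5 of 83 gained (6.02%), beside 8.12% and 5.83% genome-wide. Without sgScramble replicate 1 the lost count was 29 of 130 (22.3%), beside 20.8% genome-wide. With 1 library left out, between 1 and 5 regions of the pathway genes were gained. The shares were 4.67% and 3.92% with sgArid1a replicate 1 or 2 left out, beside 8.01% and 7.52% genome-wide. With sgScramble replicate 1 or 2 left out they were 5.49% and 1.1%, beside 2.85% and 3.17%.

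**Figure D1:**
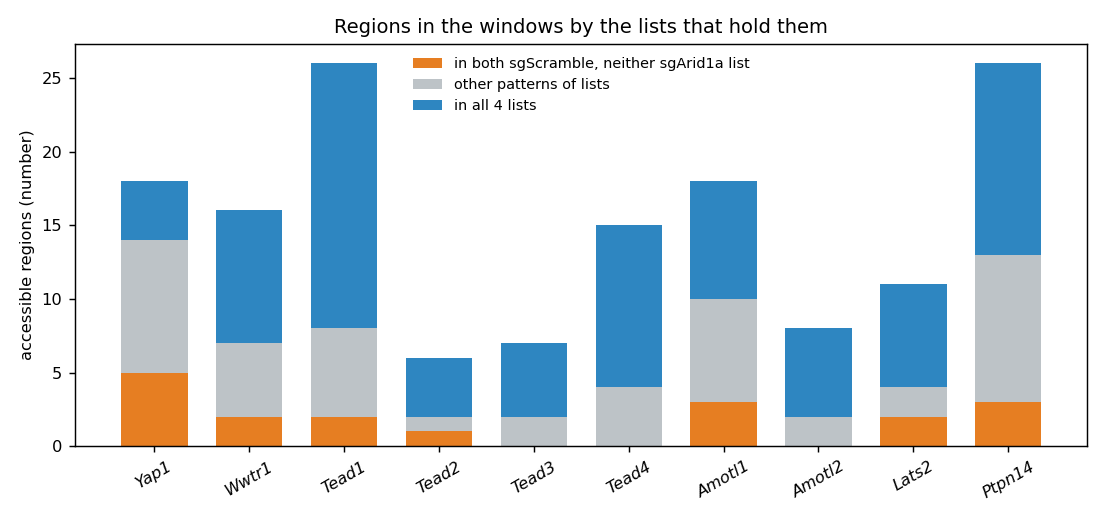
Number of accessible regions (vertical axis) in the window of each gene (horizontal axis), stacked by the lists that hold them: lost regions at the bottom, other patterns in the middle, regions in all 4 lists on top. Yap1 had 5 lost regions and 4 in all lists, whereas Tead3, Tead4 and Amotl2 had 0 lost regions.

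Yap1, the gene of the main coactivator, had the most lost regions and the highest lost share of the 10 genes. The gene lies on chromosome 9 at 7931999 to 8004638. Of the 10 regions in its window present in both sgScramble lists, 5 were lost (50%, interval 18.7% to 81.3%) and 4 were in all lists. At least 5 lost regions were found in 115 of the 17741 gene windows with a region in both sgScramble lists (0.648%). That share depends on window size, since a window with fewer than 5 such regions could not reach the limit. The median gene window with a peak held 6 regions of any pattern, and that of Yap1 held 18. At least 50% of regions were lost in 6 of the 1591 windows with 10 or more regions in both sgScramble lists (0.377%). Both of these limits were set after the values of Yap1 had been seen.

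The 5 lost regions of Yap1 were weak peaks, and 4 of them lay inside the gene. The region nearest to the gene start, at 7998749 to 7999108 and 5488 bp from it, had fold percentiles of 0.934 and 0.697 in the sgScramble lists. The fold percentile is the position of the authors' fold (signal over background) within its own list, with 100 the highest. The next, at 7977703 to 7978859, was the widest, with 1022 and 1157 bp covered in the sgScramble lists and percentiles of 22 and 37.2. Further along, the regions at 7960290 to 7960714 and 7949950 to 7950881 stood at mean sgScramble percentiles of 9.89 and 11.7. The fifth lay in the flank beyond the far end of the gene, at 7923142 to 7923663, at percentiles of 24.8 and 31.7. The count at Yap1 differed under settings that drop weak or narrow peaks: it was 0 of 3 with a −log10 q of at least 5, 1 of 6 with peaks of at least 500 bp and 2 of 6 with lists of equal length. Without sgScramble replicate 1 it was 8 of 14.

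The strong regions of Yap1 were found in every library. The region over the gene start (8003170 to 8005181) had fold percentiles of 80.3 and 85.8 in sgArid1a lists, against 75.6 and 78.4 in sgScramble lists, and the groups did not overlap. An internal region at 7983263 to 7985073, also in all lists, stood at 45.9 and 63.3 in sgArid1a lists, against 53.6 and 67.1 in sgScramble lists, where the groups overlapped. The region with the highest sgScramble percentile of the window, in the far flank at 7914223 to 7915776, was lower in sgArid1a lists, with 75.3 and 79.1 against 95.6 and 90.0. Peaks covered 5727 and 7550 bp of the window in sgArid1a lists and 8814 and 10098 bp in sgScramble lists. The means were 6638.5 ± 1290 bp for sgArid1a and 9456 ± 908 bp for sgScramble (SD, n = 2 each), and they differed by -29.8%. The lost regions made up 96.1% of that difference, and the 4 regions in all lists summed to 5460 and 4490 bp in sgArid1a lists, against 4957 and 4978 bp in sgScramble lists, with overlap. The groups also overlapped in the whole window with lists of equal length (-10.5%) and with peaks of at least 500 bp (-19.5%). By an exact two-sided permutation test p was 0.333, the smallest that 2 libraries against 2 can give. That holds for every comparison of libraries here, so no difference could pass 0.05, and whether the groups overlap is given in place of a call.

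**Figure D2:**
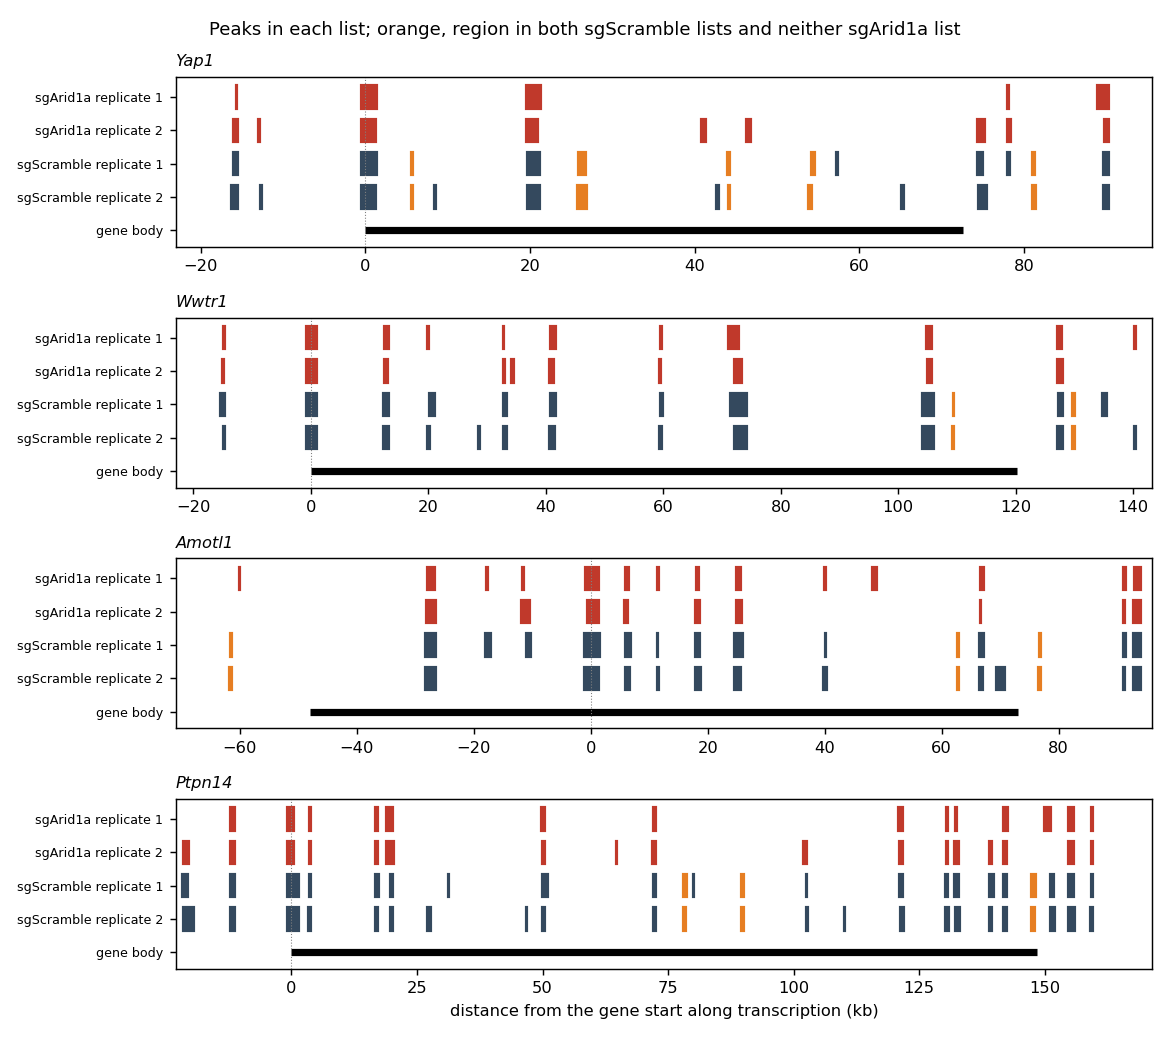
Peaks of the 4 lists around Yap1, Wwtr1, Amotl1 and Ptpn14, by distance from the annotated gene start along transcription (kb; dotted line at the start), with the gene body as a black bar. Red bars are sgArid1a peaks, dark bars sgScramble peaks and orange bars peaks of lost regions: at all 4 genes the start is covered in every list, the orange bars lie away from it, and the body of Amotl1 also runs to the left of the start used.

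Wwtr1, which encodes TAZ, lost fewer regions but had the largest relative difference in covered length of the 10 genes. It lies on chromosome 3 at 57455644 to 57575910, and 2 of its 12 regions in both sgScramble lists were lost, at 57445840 to 57446326 in the flank and 57466417 to 57466703 in the body. Peaks covered 8832 and 8444 bp in sgArid1a lists, against 14258 and 12710 bp in sgScramble lists, a difference of -35.9% in the means. All 9 regions present in both sgArid1a lists were in all 4 lists, and in 7 of them the covered length was lower in both sgArid1a lists than in both sgScramble lists, and in 0 higher, beside 40.3% and 6.47% of such regions around all protein-coding genes. With each region counted at its full length, regions in all lists made up 65.9% of the difference in covered length at Wwtr1, and lost regions 14.8%. A region of another pattern ran past the window edge, so these are not exact parts of the -35.9%. With lists of equal length 0 of 9 regions were lost at Wwtr1, and the difference in covered length was -31.7%.

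Within Wwtr1, single regions differed in opposite directions by fold percentile. The first 3 given here were chosen after their values were seen, as were the Lats2 region upstream of its first start and the Amotl1 region past its far end described further on. The internal region at 57534227 to 57535341 stood at 34.7 and 75.5 in sgArid1a lists, against 86.0 and 90.5 in sgScramble lists. Its neighbour at 57516027 to 57516709 stood at 51.9 and 48.5 in sgArid1a lists and at 91.3 and 68.9 in sgScramble lists. The region at 57469844 to 57471903, near the far end of the gene, was higher instead, at 69.4 and 77.6 against 34.3 and 36.3. The same region was narrower, with 1090 and 952 bp covered in sgArid1a lists against 1973 and 2058 bp in sgScramble lists. The strongest sgScramble region, in the flank at 57447864 to 57448937, stood at 87.2 and 98.0 in sgArid1a lists and 90.5 and 89.7 in sgScramble lists, with overlap.

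The 4 TEAD genes encode the DNA-binding partners of YAP1 and TAZ. Together they had 3 lost regions of 44 (6.82%, interval 1.43% to 18.7%, which holds the 11.8% around all protein-coding genes), 2 at Tead1 and 1 at Tead2. Tead1, on chromosome 7 at 112679356 to 112906784, is the longest of the 10 genes and had 21 regions in both sgScramble lists, of which 2 were lost (9.52%, interval 1.17% to 30.4%). Both lay in the body, at 112760536 to 112762110 and 112781925 to 112782269. Peaks covered 18324 and 19056 bp in sgArid1a lists, against 25204 and 23224 bp in sgScramble lists. The groups did not overlap and the means differed by -22.8%, near the -22.3% of the whole lists. Its strongest sgScramble region, at 112806796 to 112807950, stood at fold percentiles of 90.9 and 88.9 in sgArid1a lists and 84.9 and 92.8 in sgScramble lists, with overlap.

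Tead2, Tead3 and Tead4 had fewer regions than Tead1, and whether the groups overlapped at them varied with the settings. The lost region of Tead2 (chromosome 7, 45215792 to 45233468) lay in the flank at 45235281 to 45235655, 3184 bp from a start of Cd37, a neighbouring leukocyte gene. Peaks covered 3584 and 3913 bp of its window in sgArid1a lists and 4418 and 3772 bp in sgScramble lists, with overlap. At Tead3 (chromosome 17, 28331671 to 28350805), 0 of 6 regions were lost, and 6844 and 6871 bp were covered in sgArid1a lists, against 7912 and 8409 bp in sgScramble lists. The groups did not overlap at Tead3 and the means differed by -16.0%, but with lists of equal length the groups overlapped (-1.1%). A −log10 q of at least 5 gave -6.12% there, and windows of the gene body alone -32.6%. At Tead4 (chromosome 6, 128227143 to 128300813), 0 of 12 regions were lost, and the covered length overlapped between the groups, at 6794 and 8857 bp against 8752 and 10825 bp. The Tead4 groups did not overlap with a −log10 q of at least 5 (-24.6%), with the gene body alone (-19%) or with an extension of 50 kb (-19.2%), nor did those of Tead2 with 50 kb (-22.1%). With 1 library left out, the difference at Tead2 was -4.44% and -12.5% without sgArid1a replicates 1 and 2, and -0.623% and -15.2% without sgScramble replicates 1 and 2. At Tead4 it was -9.52% and -30.6% without sgArid1a replicates 1 and 2, and -27.7% and -10.6% without sgScramble replicates 1 and 2. Without sgArid1a replicate 2, Tead3 and Tead4 had 1 lost region each, and without sgScramble replicate 1 Tead4 had 2. The strongest region of Tead4 lay at 128227391 to 128228149, by one end of the gene. It stood at fold percentiles of 95.9 and 97.8 in sgArid1a lists and 98.1 and 97.5 in sgScramble lists, with overlap. Counting from the highest fold, in lists of unequal length, it ranked 2689 and 1550 in the sgArid1a lists, against 1600 and 2122 in the sgScramble lists.

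Lats2 encodes one of the kinases that act on YAP1 and TAZ. On chromosome 14 at 57689662 to 57746212, it had 9 regions in both sgScramble lists, of which 2 were lost. One of them, at 57675235 to 57675934 in the flank beyond the gene's far end, had the highest sgScramble percentile of the 18 lost regions, at 33.9 and 64.7 (mean 49.3). The other lay in the body at 57693143 to 57693647 (mean 16.3). Peaks covered 9552 and 9363 bp in sgArid1a lists and 11549 and 10579 bp in sgScramble lists, without overlap and with a difference of -14.5% in the means, of which lost regions made up 62.9%. The difference was -8.04% in the gene body alone and -29% with a −log10 q of at least 5, and with an extension of 50 kb the groups overlapped (-5.73%). Upstream of the first start, the region at 57759950 to 57761583 was lower in percentile, at 45.5 and 51.4 in sgArid1a lists, against 79.8 and 75.4 in sgScramble lists.

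The angiomotin-like genes encode proteins that bind YAP1. Amotl1 (chromosome 9, 14541966 to 14662974) had 3 of 13 lost, at 14537963 to 14538606, 14552048 to 14552431 and 14676298 to 14676766. Amotl2 (chromosome 9, 102717091 to 102733418), a small gene and a YAP target itself, had 0 of 7 lost. Without sgArid1a replicate 1 Amotl1 had 5 of 13 lost, and without sgArid1a replicate 2 Amotl2 had 1 of 7. The order of the 2 genes turned with a −log10 q of at least 5 (2 of 7 at Amotl1 and 3 of 7 at Amotl2) and with peaks of at least 500 bp (0 of 7 and 1 of 6). With lists of equal length Amotl1 had 1 of 9. With so few regions the intervals overlap widely, 5.04% to 53.8% for Amotl1 and 0% to 41.0% for Amotl2. Peaks covered 9884 and 8658 bp at Amotl1 in sgArid1a lists, against 13228 and 12805 bp in sgScramble lists. At Amotl2 they covered 6610 and 7219 bp in sgArid1a lists, against 8781 and 8827 bp in sgScramble lists. Neither gene's groups overlapped, and the differences were -28.8% and -21.5%. With each region counted at its full length, also past the window edge at Amotl1, regions in all lists made up 86.6% of the difference at Amotl2 and 52.8% at Amotl1.

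Both angiomotin-like genes had flank regions with a large difference in rank. The strongest sgScramble region of Amotl2, in the upstream flank at 102706468 to 102707202, stood at 37.5 and 54.1 in sgArid1a lists, against 74.1 and 76.7 in sgScramble lists. At Amotl1 the region at 14523538 to 14524085, past the far end of the gene, was higher, at 65.1 and 55.1 in sgArid1a lists, against 21.1 and 21.7 in sgScramble lists. Its difference in mean percentile, 38.7 points, was the largest positive one among the 85 pathway regions in all lists, ahead of the 38.1 points of the region near the far end of Wwtr1. The strongest sgScramble region of Amotl1, at 14596173 to 14597101 in the body, was not separated between the groups (98.8 and 87.0 against 90.3 and 87.7).

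Ptpn14, the phosphatase gene, had 3 of 20 regions lost (15%, interval 3.21% to 37.9%). It lies on chromosome 1 at 189728216 to 189876695, and all of the lost regions lay in its body, at 189806319 to 189807002, 189817823 to 189818460 and 189875503 to 189876415. Peaks covered 11797 and 12604 bp in sgArid1a lists, against 16860 and 18101 bp in sgScramble lists, a difference of -30.2% with no overlap. Lost regions differed by -2128 bp and regions in all lists by -1424 bp, beside -5280 bp for the whole window. With every region counted at its full length, lost regions made up 34.7% of the difference, regions in all lists 23.2% and other patterns 42.1%. These are not parts of the -30.2%, since a region of another pattern (189706569 to 189708936) lay partly outside the window, which began at 189708216. Within the window the part of other patterns was not computed. The lost count was 6 of 20 without sgArid1a replicate 2, 6 of 23 without sgScramble replicate 1 and 5 of 21 without sgScramble replicate 2. It was 0 of 11 with lists of equal length, 1 of 11 with a −log10 q of at least 5 and 5 of 18 with peaks of at least 500 bp. The highest-ranked pathway region of the sgScramble lists lay here, in the body at 189800042 to 189800826. It ranked 3891 and 5303 by fold in the sgArid1a lists, against 311 and 417 in the sgScramble lists, and its percentiles were 94.0 and 92.6 against 99.6 and 99.5. It was thus present in every list and lower in rank in both sgArid1a lists.

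The starts used for the pathway genes were open in every library. Of 11 regions over a start of their own gene, 11 were in all 4 lists. Tead1 and Tead4 were taken at the gene boundary that a region covered, and Lats2 was counted at 2 starts. A Tead1 or Tead4 start without a region could therefore not have been counted. The outer end of the Amotl1 body, at 14662974, lay in no region and was not among the starts used. None of the other 4 regions in both sgScramble lists that lay over starts of neighbouring genes was lost. All 18 lost regions lay in gene bodies (12 of 66, 18.2%) or in flanks (6 of 34, 17.6%). With so few starts, 0 of 11 leaves an interval of up to 28.5%. Genome-wide, 1.48% of regions over an annotated start were lost and 14.1% of those over no annotated start within 20 kb of a protein-coding gene. Only 17492 of the 21887 protein-coding genes had an annotated start, so starts of the others can fall in the second group. The distance of the 18 lost regions to the nearest annotated start ran from 3184 bp upward.

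By rank, the start regions stood higher in the sgArid1a lists. The fold percentile was higher in both sgArid1a lists than in both sgScramble lists at 8 of the 11 (72.7%) and lower at 0. Over all 10237 start regions in all lists, the corresponding shares were 43.2% and 11.4%, so the same direction predominated over gene starts in general. The sets are not defined alike, since the 10237 lay over annotated starts only. The 11 also include the boundary regions of Tead1 and Tead4, which had no annotated start and were both among the 8. Covered length was lower in both sgArid1a lists at 5 of the 11 (45.5%) and higher at 0, beside 38.5% and 6.93% over all start regions. At Tead1 the boundary region (112678294 to 112680192) stood at 83.5 and 90.4 in sgArid1a lists, against 66.8 and 63.5 in sgScramble lists. The start of Amotl1 (14613348 to 14616121) stood at 55.3 and 67.9 against 33.1 and 34.8. The first start of Lats2 (57744601 to 57746832) stood at 82.9 and 74.2 in sgArid1a lists and 49.5 and 56.9 in sgScramble lists. The starts of Wwtr1, Tead3, Tead4 and Ptpn14 were also higher without overlap, by mean differences of 7.87, 5.14, 7.74 and 15.7 points. The starts of Tead2 and Amotl2 and the inner start of Lats2 overlapped between the groups.

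**Figure D3:**
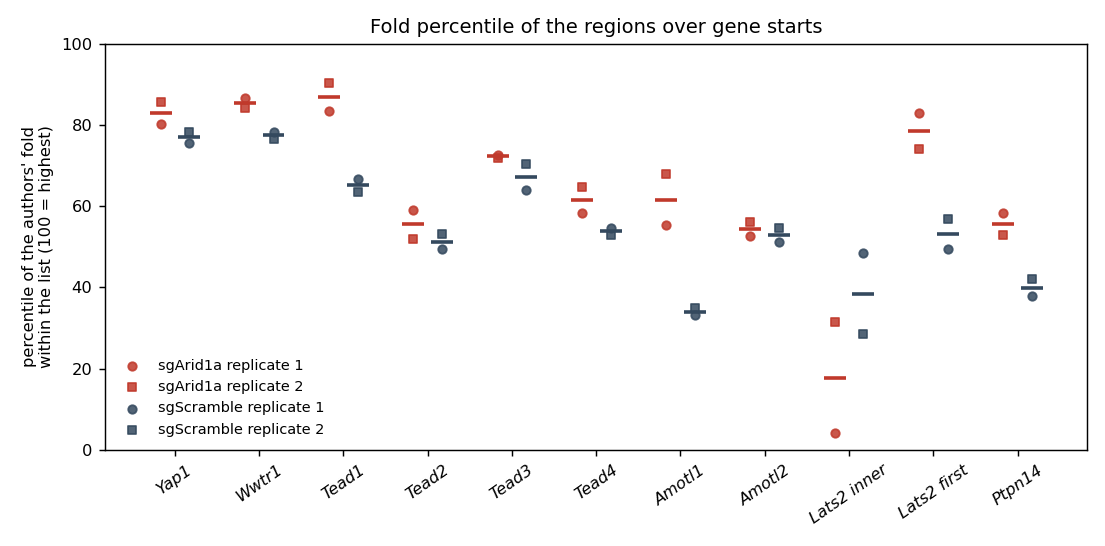
Percentile of the authors' fold within each list (vertical axis, 100 the highest) for the 11 regions over gene starts (horizontal axis); points are libraries, lines group means, sgArid1a left of sgScramble. The sgArid1a points lie above the sgScramble points at 8 regions, most widely at Tead1, Amotl1 and the first start of Lats2, and at the inner start of Lats2 the groups overlap.

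Over all 85 pathway regions in all lists, the percentile was lower in both sgArid1a lists at 22 (25.9%) and higher at 24 (28.2%), beside 28.7% and 22.6% around all protein-coding genes. Their covered length was lower at 36 (42.4%) and higher at 3 (3.53%), beside 40.3% and 6.47%. Away from starts the ranks were mixed. Of the 70 regions in all lists that lay over no gene start, the percentile was lower in both sgArid1a lists at 22 (31.4%) and higher at 14 (20%). For regions over no annotated start around all protein-coding genes the shares were 34.1% and 16.3%. Their covered length was lower at 31 (44.3%) and higher at 3 (4.29%), beside 40.8% and 6.35%. Many regions with a higher percentile were nevertheless narrower. Among the 24 pathway regions with a higher percentile in both sgArid1a lists, 15 (62.5%) were narrower in both, and among the 22 with a lower percentile, 8 (36.4%) were. Around all protein-coding genes these shares were 50.7% and 41.0%. The part of peak width in the ranks was not tested.

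The promoters of 8 of the 10 genes had an entry in the RefSeq promoter table of GRCm38.p6, 12 promoters in all, and 12 of 12 were covered over their full 250 bp upstream of the start in every list. Tead1 and Tead4 had no entry. The TEAD element GGAATG, searched on both strands (CATTCC on the other), occurred upstream of 5 of the 8 genes. It was found in 2353 of all 17492 protein-coding genes with an entry (13.5%). Of single promoters, 7 of 12 held it (58.3%), against 11.7% of all 21263. The 12 are not separate sequences. They include 2 overlapping promoters of Wwtr1 that hold the same element, and 3 promoters of Tead3. The AP-1 element TGANTCA, which reads the same on both strands, was in 0 of the 12, against 6.13% of all promoters. A match describes the letters and is not evidence of binding. The promoters below are shown because they carry the element inside a peak present in every library. Each is the 250 bases before the start, 5′ to 3′ on the gene's strand, with the TEAD element in capitals. The element begins 141 bases before the start of Yap1, 136 before that of Wwtr1, 123 and 114 before that of Tead3, 65 before that of Amotl2 and 146 before that of Ptpn14.
Yap1, chr9:8004597-8004846, minus strand: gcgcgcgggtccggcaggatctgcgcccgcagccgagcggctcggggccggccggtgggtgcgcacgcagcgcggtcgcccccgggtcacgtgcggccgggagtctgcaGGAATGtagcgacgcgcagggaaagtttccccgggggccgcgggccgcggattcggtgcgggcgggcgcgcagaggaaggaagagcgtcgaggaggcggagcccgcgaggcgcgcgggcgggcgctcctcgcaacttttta
Wwtr1, chr3:57575911-57576160, minus strand: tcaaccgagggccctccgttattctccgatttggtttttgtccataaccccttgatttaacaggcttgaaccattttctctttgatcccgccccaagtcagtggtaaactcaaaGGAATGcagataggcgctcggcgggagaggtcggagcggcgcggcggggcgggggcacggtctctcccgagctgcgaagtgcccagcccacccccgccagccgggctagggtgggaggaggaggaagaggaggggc
Tead3, chr17:28350601-28350850, minus strand: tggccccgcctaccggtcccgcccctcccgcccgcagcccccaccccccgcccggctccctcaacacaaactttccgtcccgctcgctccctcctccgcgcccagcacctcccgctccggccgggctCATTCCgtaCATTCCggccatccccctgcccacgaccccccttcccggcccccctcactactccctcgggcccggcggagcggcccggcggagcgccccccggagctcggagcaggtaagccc
Amotl2, chr9:102717554-102717803, plus strand: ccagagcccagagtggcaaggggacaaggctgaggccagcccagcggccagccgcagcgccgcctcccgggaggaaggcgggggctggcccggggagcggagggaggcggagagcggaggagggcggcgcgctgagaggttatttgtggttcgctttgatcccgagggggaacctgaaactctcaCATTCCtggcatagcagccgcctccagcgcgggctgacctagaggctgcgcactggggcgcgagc
Ptpn14, chr1:189728018-189728267, plus strand: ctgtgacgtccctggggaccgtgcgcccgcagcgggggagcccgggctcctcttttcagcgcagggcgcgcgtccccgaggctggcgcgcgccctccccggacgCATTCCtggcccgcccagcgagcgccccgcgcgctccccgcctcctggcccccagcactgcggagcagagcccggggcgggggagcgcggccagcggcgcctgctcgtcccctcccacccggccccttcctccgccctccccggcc

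Summed over the 10 windows, peaks covered less in the sgArid1a libraries, as they did over the whole lists. The sum was 87948 and 92535 bp in sgArid1a lists, against 119776 and 119350 bp in sgScramble lists. The means were 90241.5 ± 3240 bp for sgArid1a and 119563 ± 301 bp for sgScramble (SD, n = 2 each), and they differed by -24.5% (exact two-sided permutation p = 0.333). In 8 of the 10 windows both sgArid1a values lay below both sgScramble values, against 57.8% of all 18323 gene windows with a peak, and in 0 they lay above, against 2.53%. The median difference over the 10 windows was -22.1%, and over all windows -17.2%. The direction turned at Amotl2 (28.9%), Ptpn14 (8.84%) and Tead2 (6.1%) with lists of equal length, and at Yap1 (0.715%) with a −log10 q of at least 5.

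As a share of each list's own covered length, the windows did not differ beyond the spread between replicates. Of each Mb covered by a list, the 10 windows held 1637 and 1479 bp in sgArid1a lists, against 1620 and 1575 in sgScramble lists (exact permutation p = 1). Wwtr1 and Ptpn14 were the 2 windows with a lower share in both sgArid1a lists, and Tead2 was the 1 with a higher share. Over all gene windows with a peak, 14.5% had a lower and 34.5% a higher share. At Wwtr1 the share was 164 and 135 bp per Mb in sgArid1a lists, against 193 and 168 in sgScramble lists. At Ptpn14 it was 220 and 201 against 228 and 239, and at Tead2 66.7 and 62.5 against 59.8 and 49.8. Without sgArid1a replicate 2 the sum over the windows turned to a higher share in sgArid1a (2.43%, against -2.52% with all libraries). With peaks of at least 500 bp the share was lower in sgArid1a without overlap (-5.72%), as it was without sgArid1a replicate 1 (-7.47%), and in gene bodies alone the difference was -6.13% with overlap.

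**Figure D4:**
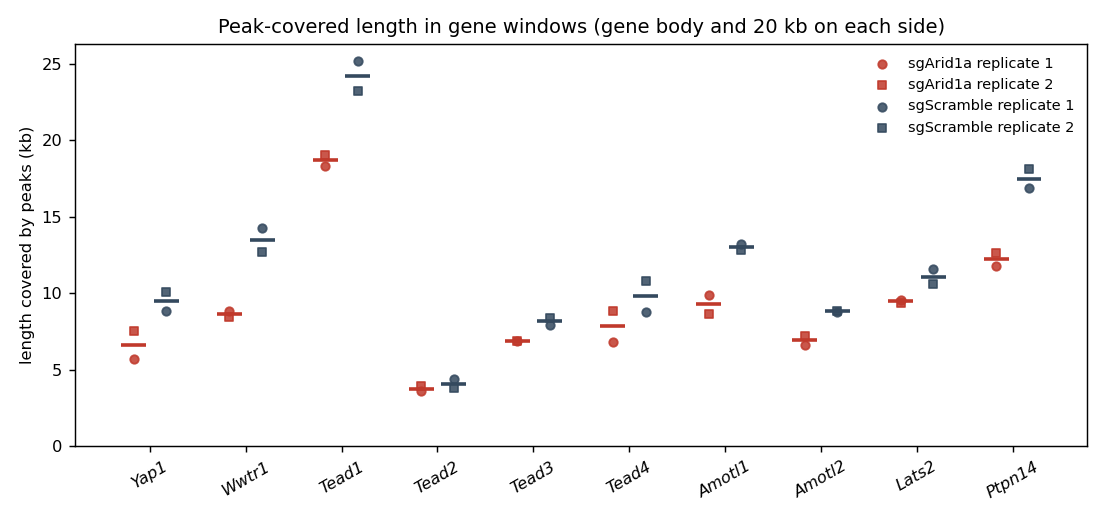
Length covered by peaks (kb, vertical axis) in the window of each gene (horizontal axis); points are libraries, lines group means, sgArid1a left of sgScramble. The sgArid1a points lie below the sgScramble points at 8 genes and overlap with them at Tead2 and Tead4, with a difference of -35.9% at Wwtr1 and -8.46% at Tead2.

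The regions that were lost were weaker and narrower than those that stayed, as around other genes. In the sgScramble lists, the lost regions of the pathway genes covered a median of 431.5 bp at a median fold percentile of 21.2, and the regions in all lists 977 bp at 53.2. Around all protein-coding genes the corresponding values were 475.5 bp at 25.2 and 1003.5 bp at 64.4. The covered length of the 85 pathway regions in all lists in sgArid1a replicates 1 and 2 came to 84.1% and 85.2% of the mean of the sgScramble libraries. For all such regions around protein-coding genes it was 84.4% and 92.5%.

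Other genes of the pathway, which are not among the 10, lost regions at a share close to the background. A list of 34 upstream kinases, scaffolds, polarity genes and TEAD cofactors had 26 of 268 regions lost (9.7%, interval 6.44% to 13.9%), at 14 genes, and 2 of 209 gained. Covered length was lower in both sgArid1a lists at 25 of the 32 windows with a peak and higher at 0, beside 57.8% and 2.53% of all gene windows. As a share of the list's covered length, it was lower at 6 and higher at 10, beside 14.5% and 34.5%. With lists of equal length 10 of 193 regions were lost (5.18%), beside 8.12% genome-wide. With sgArid1a replicate 1 or 2 left out, 41 (15.3%) and 54 (20.1%) were lost, beside 17.4% and 23.1% genome-wide. With sgScramble replicate 1 or 2 left out, 61 (19.2%) and 47 (15.7%) were lost, beside 20.8% and 18.9%. Lats1, the paralog of Lats2, had 0 of 9 regions lost, and its peaks covered 8800 and 11428 bp in sgArid1a lists, against 7911 and 11200 bp in sgScramble lists. Nf2, the merlin tumour suppressor upstream of the kinases, had 0 of 12 lost, with 11170 and 11479 bp against 16821 and 12835 bp.

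Of the MST kinases that act on LATS, Stk3 had a lower covered length without overlap, as did 57.8% of all gene windows, and Stk4 did not. Stk3 had 1 of 7 regions lost and 3403 and 6134 bp covered in sgArid1a lists, against 7116 and 8931 bp in sgScramble lists. Stk4 had 0 of 9 lost, with overlap between the groups at 8923 and 9639 bp against 9216 and 10526 bp. As a share of the list's covered length, the groups overlapped at Stk3 (63.3 and 98 bp per Mb in sgArid1a lists, against 96.3 and 118 in sgScramble lists). The share of Stk4 was higher in both sgArid1a lists (166 and 154 against 125 and 139), as it was in 34.5% of all gene windows. Vgll4, a TEAD cofactor that competes with YAP1, had 2 of 16 lost. The polarity gene Pard3 had the most lost regions (3 of 32). Of the genes tied at 2, those with the highest lost share were the cadherin gene Fat4 (2 of 3), the LIM protein gene Ajuba (2 of 5) and the scaffold gene Dlg5 (2 of 8), ahead of Sik2, Fat1, Limd1, Strn3, Wwc1, Map4k4 and Vgll4. Taok3, a kinase, and Wwc2, a relative of the scaffold KIBRA, had 1 gained region each. No peak lay in the windows of Vgll1 and Vgll2 in any list.

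Known target genes of YAP and TEAD that are not among the 10 stood near the background too. In a list of 23, 21 of 175 regions were lost (12%, interval 7.58% to 17.8%), at 12 genes, and 1 of 139 was gained. Covered length was lower in both sgArid1a lists at 16 windows and higher at 1, that of the EGF receptor ligand gene Areg, which was named after its values were seen. Over all gene windows these shares were 57.8% and 2.53%. As a share of the list's covered length, 4 windows were lower and 7 higher, beside 14.5% and 34.5%. With lists of equal length 15 of 140 regions were lost (10.7%), beside 8.12% genome-wide. With sgArid1a replicate 1 or 2 left out, 26 (14.9%) and 36 (20.6%) were lost, beside 17.4% and 23.1% genome-wide. With sgScramble replicate 1 or 2 left out, 37 (18.8%) and 33 (17.1%) were lost, beside 20.8% and 18.9%. Ccn2, a matricellular protein gene and a standard YAP reporter, had 1 region in its window, present in all lists, with 828 and 767 bp covered in sgArid1a lists, against 1133 and 1046 bp in sgScramble lists. Ccn1, its relative, had 1 of 4 regions lost and overlapping covered lengths, at 5420 and 5876 bp against 5478 and 6181 bp. At Ankrd1, a muscle ankyrin repeat gene, 1 of 2 regions was lost, and 813 and 834 bp were covered in sgArid1a lists, against 1281 and 1496 bp in sgScramble lists. Covered length was thus lower without overlap at Ccn2 and Ankrd1. As a share of the list's covered length, the groups overlapped at Ccn2 (15.4 and 12.3 bp per Mb in sgArid1a lists, against 15.3 and 13.8 in sgScramble lists). The share was higher in both sgArid1a lists at Ccn1 (by 25.1% in the means) and lower at Ankrd1 (15.1 and 13.3 against 17.3 and 19.7).

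Among the target genes with the most lost regions, Rbms3, an RNA-binding protein gene, had 5 of 29 lost, the guanine exchange factor gene Dock5 3 of 11, Tgfb2, a TGF-beta ligand, 3 of 11 and Asap1, an ARF GTPase-activating protein gene, 2 of 23. Igfbp3, which encodes a binding protein of insulin-like growth factors, had the 1 gained region.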

How the data were processed

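The authors deposited 1 broad peak list per library, and per the labels' protocols each transposition used 50000 cells. Each peak carries a fold (ratio) over background and a −log10 q-value, both as deposited by the authors, and no −log10 q lies below 1. The submitters' processing notes name STAR 2.5.3a, HOMER, GRCm38 and mm10 without roles. The sources used here do not give the peak caller or any Tn5 shift. Fold and peak width depend on depth and background, so folds were ranked within a list only.

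Overlapping peaks (1 bp or more) of the 4 lists formed a region, on the autosomes, X and Y. A list had a region when it had a peak there. Genes, promoters and gene starts came from RefSeq tables of GRCm38.p6, and 1 symbol was matched by synonym. Exons and introns were not distinguished. Replicate numbers came from the titles. Group means were compared by an exact permutation test over libraries. Each list and window was also recomputed with a stricter q, equal-length lists, merging within 1 kb, peaks of at least 500 bp and windows of 0 or 50 kb. Further runs left out each library or took the replicate number as a block. In another, a list had a region only where its peaks covered at least 50% of the region. The genes named were the 10, a set of core genes, and in each further list 4 genes that lost most regions and up to 3 that gained most, with ties broken by the share of regions, then by name. The members and lists were chosen with earlier results of these data known. Merging and covered length were tested on simulated lists. Python 3.11.15, numpy 2.4.6, pandas 2.3.3, SciPy 1.17.1 and matplotlib 3.10.9 were used.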

Additional observations from a re-analysis of the deposited data

How the results depend on the processing

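Covered length summed over the 10 windows was lower in sgArid1a than in sgScramble libraries under every alternative run, by between -8.26% with lists of equal length and -30% with a −log10 q of at least 5, and between -22.6% and -26.4% with 1 library left out. Of 120 alternative values for single genes, 116 were also lower. The 4 reversed ones were Amotl2 (28.9%), Ptpn14 (8.84%) and Tead2 (6.1%) with lists of equal length and Yap1 (0.715%) with the stricter q. As a share of the list's covered length, the sum reversed to 1.48% with the stricter q and 0.289% with equal lengths, was -5.72% with peaks of at least 500 bp (no overlap between the groups) and -6.13% in gene bodies alone, and ran from -7.47% to 2.43% with 1 library left out. The cause was not tested. With lists of equal length, 5 regions were lost at the 10 genes, 10 at the other Hippo genes and 15 at the target genes, and 5 were gained at the 10 genes. The stricter q gave 1 gained region of 54 at the 10 genes (1.85%), beside 0.27% genome-wide. With 1 library left out, lost regions ran from 22 to 29 at the 10 genes. They ran from 41 to 61 at the other Hippo genes and from 26 to 37 at the target genes. Gained regions at the 10 genes ran from 1 to 5. Fewer lists then have to agree, and genome-wide the same runs gave lost shares of 17.4% to 23.1% and gained shares of 2.85% to 8.01%. The other alternatives kept the counts at these genes within 1.5 times. Same-numbered libraries share only a number (correlation of their deviations over gene windows 0.0266). With the replicate number as a block the counts were the same by construction, 18 lost and 0 gained, and the differences of -24.5% and -2.52% kept their values, with exact sign-flip p of 0.5 and 1, where 0.5 is the smallest possible. Depth is unknown, so an absent peak cannot be told from a weak one below the authors' threshold.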

Other observations

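The windows also held starts of neighbouring genes, which have no known part in the pathway. The start of Fance, a Fanconi anaemia gene beside Tead3, stood at fold percentiles of 82.5 and 82.7 in sgArid1a lists, against 82.0 and 79.0 in sgScramble lists, without overlap. The start of Kash5, a meiotic gene beside Tead2, stood at 94.1 and 84.6 in sgArid1a lists, against 64.3 and 80.5 in sgScramble lists, again without overlap. At Rpl10a, a ribosomal protein gene beside Tead3, the values overlapped (34.6 and 54.3 against 32.6 and 43.5). The start of Cd37 beside Tead2 was called in both sgArid1a lists and in sgScramble replicate 1, at percentiles of at most 19.9.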
